A study of Rattus norvegicus with 16 samples.

Results

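The comparison described here is that of Group B with Group A during the subjective night, in fetal suprachiasmatic nuclei (SCN) of the rat. It uses 8 of the 16 RNA-Seq libraries of the study, namely the 4 libraries of each group collected at circadian time (CT) 12, 15, 18 and 21. All mothers were Wistar rats that underwent brain surgery early in gestation and were then kept in constant darkness until they were killed. Group A mothers had sham surgery and were fed ad libitum, so their own SCN remained intact. Group B mothers had their SCN destroyed by an electrolytic lesion and, later in gestation, had access to food for only some hours of each day (time-restricted feeding). Lesion and feeding regime changed together between the groups, so their effects cannot be told apart in these libraries. CT12, the start of the subjective night, was set at the onset of free-running locomotor activity in Group A. In Group B it was set at the start of food-related activity. Food was thus present in Group B for only part of the subjective night. The labels place the fetuses at embryonic age 17, whereas the methods of the study give a later embryonic day.

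Each library was made from SCN of several fetuses of 1 mother, and 1 mother was used for each group and circadian time. The sources differ on the size of the pools. The sample titles give 8 fetuses in both groups, whereas the extraction protocol gives 8 for Group A but 5 to 10 for Group B. The 4 libraries of a group at night therefore differ in both litter and hour, and the p-values below measure the group difference against the spread over both. The tissue was bulk, so fewer cells of a type and less RNA per cell cannot be told apart.

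The SCN are a paired nucleus of the hypothalamus that holds the central circadian clock of mammals. Their neurons are born before birth, and their rhythms in clock gene expression and their synaptic network mature around and after birth. Before the fetal clock is autonomous, the fetus receives rhythmic cues from the mother, among them hormones, nutrients and body temperature. The subjective night is the active and feeding phase of a rat with an intact clock.

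The night libraries of Group A held 10746066 to 12781966 counts and those of Group B 10573054 to 14535916, and 18162 to 18809 genes were detected in each. Of the 32883 genes in the table, 13685 (41.6%) reached 1.5 CPM (counts scaled to a fixed library total) in at least 3 of the 16 libraries and were tested. Genes were listed by Ensembl identifier and could not be paired with symbols here. The SCN label was therefore not checked against marker genes, and clock genes, SCN peptides and markers of other cell types were not analysed here.

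No gene passed the main test for a difference between the groups at night, which was edgeR's quasi-likelihood test with Benjamini-Hochberg adjustment over all genes tested. It called 0 of 13685 genes at an adjusted p of 0.05 (0%), with a lowest adjusted p of 0.192. Before adjustment, p was below 0.05 for 794 genes (5.80%), split into 410 with a higher level in Group B (3.00%) and 384 with a lower one (2.81%). With limma voom the count at an adjusted p of 0.05 was also 0 (lowest 0.202), and 772 genes passed 0.05 before adjustment. DESeq2's Wald test, the tool used in the study, gave 10 genes of the 13682 with an adjusted p (0.0731%) and 712 that passed 0.05 before adjustment. EdgeR's test without the filter on low counts gave 28 of 22751 genes. Both the tool and the filter thus decided whether any gene was called.

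**Figure D1:**
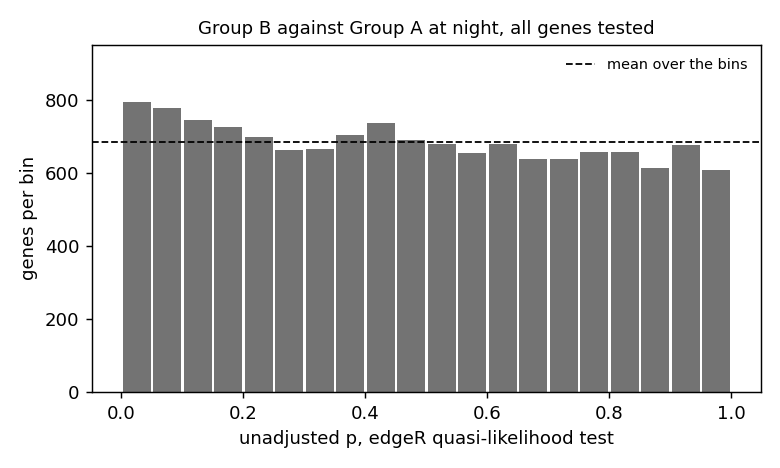
Number of genes (vertical axis) by unadjusted p of edgeR's quasi-likelihood test (horizontal axis, bins of width 0.05) for Group B against Group A at night over 13685 genes, with the mean over the bins as a dashed line. The bin of the lowest p holds the most genes, 794, and the bin of the highest p the fewest, 608.

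The 10 genes called by DESeq2 comprised 4 that were higher and 6 that were lower in Group B. In all 10, no Group B night library overlapped a Group A night library, against 498 (3.64%) of the 13685 genes tested. Selection for a low p on the same libraries favours such separation. The median size of their difference was 0.59 on the log2 scale, and 3 exceeded 2-fold. Their adjusted p in edgeR's test ranged from 0.192 to 0.533. The number of DESeq2 calls depended on single libraries. It rose to 51 without the Group A library of CT18 and fell to 3 without the Group B library of CT18, and 1 gene was called in each of the 8 fits that left out a library. It was 4 with a block for circadian time and 4 when all 16 libraries were fitted. These refits of DESeq2 were chosen after the values had been seen.

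The gene called in each of those 8 fits was ENSRNOG00000002360, which also had the lowest p in edgeR's test among the genes that were higher in Group B. Its level in Group A was 16.1, 12.9, 15.3 and 16.6 CPM at CT12, CT15, CT18 and CT21. In Group B it was 23.0, 27.8, 22.9 and 23.9 CPM at the same times. The lowest Group B library thus lay above the highest Group A library, and the values varied little within each group. The genes named here were picked among those without overlap between the groups at night, so this separation was a condition of their choice. The means were 15.2 ± 1.64 CPM in Group A and 24.4 ± 2.29 CPM in Group B (SD, n = 4 each), a 1.60-fold difference. On the log2 scale it was 0.68 with an SE of 0.11 and a 95% interval from 0.45 to 0.91, with an edgeR adjusted p of 0.192 and a DESeq2 adjusted p of 0.000528. The counts behind these values were 161 to 332 per library.

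ENSRNOG00000046707 had the largest night difference of the genes named here and was far more abundant, taking 0.146% of the Group A counts and 0.447% of the Group B counts. Group A held 925, 723, 1687 and 2507 CPM at CT12, CT15, CT18 and CT21. Group B held 4009, 5106, 5910 and 2840 CPM. All Group B libraries were above all Group A libraries, but the gap closed towards the end of the night. The ratio of Group B to Group A was 4.33 at CT12, 7.07 at CT15, 3.50 at CT18 and 1.13 at CT21. The means of 1460 ± 812 and 4466 ± 1335 CPM (SD, n = 4 each) differed 3.06-fold, or by 1.61 on the log2 scale (SE 0.31, 95% interval 0.95 to 2.27). EdgeR's adjusted p was 0.314 and DESeq2's was 0.263.

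Among the genes that were lower in Group B, ENSRNOG00000025209 had the lowest p. Its level was 45.6, 48.3, 44.9 and 50.1 CPM in Group A and 36.0, 35.0, 31.6 and 35.7 CPM in Group B, in the order CT12, CT15, CT18 and CT21. The groups were apart at each time, with a narrow spread in both. The means were 47.2 ± 2.42 and 34.6 ± 2.05 CPM (SD, n = 4 each), and the log2 difference was -0.45 (SE 0.075, 95% interval -0.61 to -0.29). The adjusted p was 0.192 in edgeR's test and 0.000979 in DESeq2's, and DESeq2 called the gene in 6 of the 8 fits that left out a library.

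ENSRNOG00000013661 was the other gene named for a lower level in Group B. It stood at 79.1, 69.3, 63.9 and 65.4 CPM in Group A and at 52.4, 49.95, 47.8 and 55.4 CPM in Group B across the same 4 times. The distance between the groups was greatest at CT12 and smallest at CT21. The means of 69.4 ± 6.85 and 51.4 ± 3.26 CPM (SD, n = 4 each) differed by -0.43 on the log2 scale (SE 0.079, 95% interval -0.60 to -0.27). EdgeR's adjusted p was 0.233, DESeq2's was 0.0019, and DESeq2 called this gene in 6 of 8 fits that left out a library as well.

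**Figure D2:**
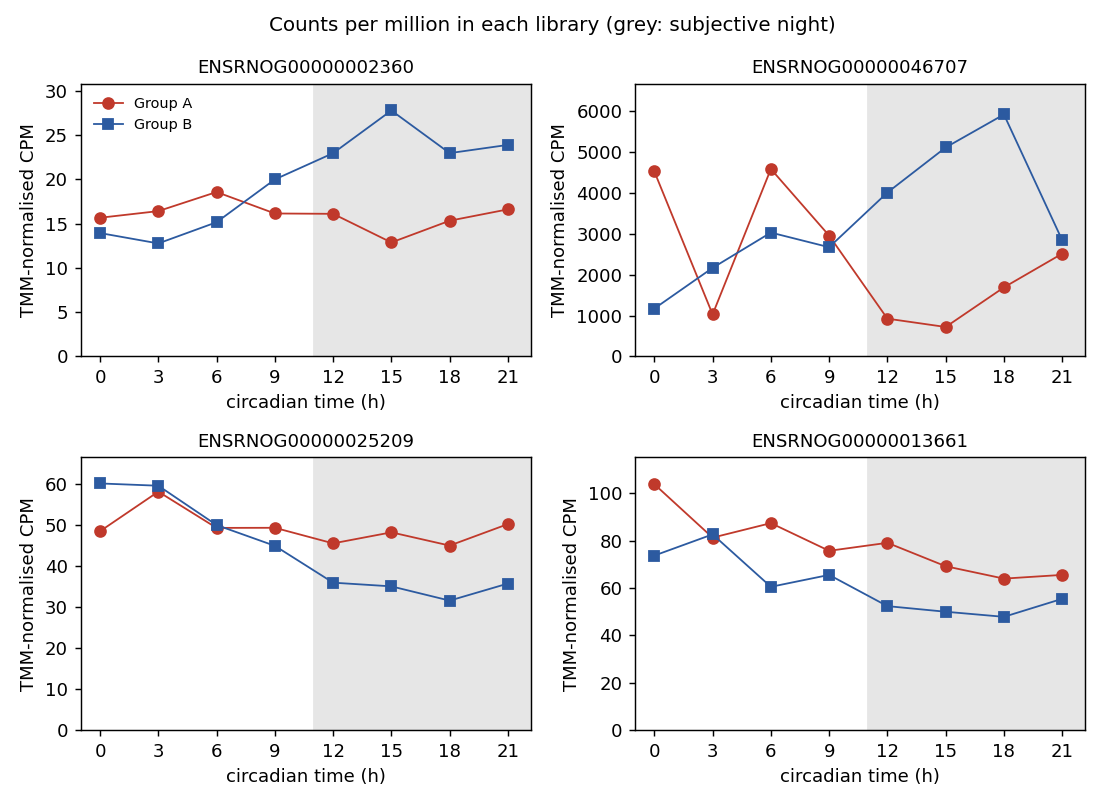
Level of the 4 named genes in CPM after TMM normalisation (vertical axis, from 0) against circadian time in hours (horizontal axis) for Group A (red circles) and Group B (blue squares), 1 library per point, with the subjective night in grey. In each panel the 4 night libraries of Group B lie apart from those of Group A, whereas the day libraries overlap. The genes were chosen for a low p and no overlap at night, so the night separation was fixed by the choice. The contrast with the day libraries is a description.

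Night libraries without overlap between the groups were not limited to these 4 genes. In 264 genes every Group B night library was above every Group A night library (1.93%), and in 234 genes every one was below (1.71%). A random split of the libraries into groups of 4 would also give shares of this order, so these counts alone do not show a group difference. Most differences in these genes were small, with a median log2 difference of 0.20 in the first set and -0.25 in the second. Of the 498 genes, 17 exceeded 2-fold. Among those with a mean of at least 20 normalised counts, the 12 of lowest p in each direction were examined further. The 12 that were higher in Group B had log2 differences from 0.25 to 1.61 (median 0.34), and the 12 that were lower had differences from -1.16 to -0.24 (median -0.45). Their edgeR adjusted p ranged from 0.192 to 0.762 in both directions.

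Over all genes tested, the night difference between the groups was small relative to what the libraries could resolve. The median absolute log2 difference was 0.08, and the median half-width of the 95% interval was 0.23. In 12481 genes (91.2%) the whole interval lay within a 2-fold change, and in 10323 (75.4%) it lay within a 1.5-fold change. The precision followed the depth of each gene. The median half-width was 0.88 in genes with a mean below 20 counts per night library, of which 22.7% had an interval within 2-fold, and 0.11 in genes with at least 2500 counts, of which 99.1% did. For most genes of the lowest class the interval thus did not lie within a 2-fold change. A fitted difference over 2-fold was found in 64 genes, of which 36 had a mean below 20 counts and 20 had at least 10 counts in every night library.

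**Figure D3:**
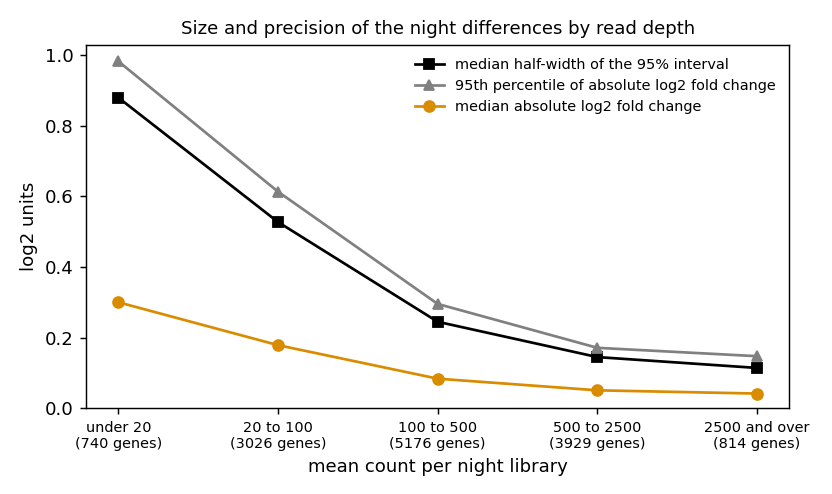
Median absolute log2 difference (orange circles), its 95th percentile (grey triangles) and median half-width of the 95% interval (black squares) in log2 units on the vertical axis, for genes in 5 classes of mean count per night library on the horizontal axis. The median half-width falls from 0.88 in the class below 20 counts to 0.11 in that of 2500 and over, and exceeds the median difference in each class.

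The night libraries did not sort by group. Pearson's correlation between libraries, over genes on the log2 CPM scale, was 0.976 to 0.986 within Group A, 0.984 to 0.986 within Group B and 0.978 to 0.986 between the groups. The library most similar to a given library belonged to its own group in 2 of 8 cases. These were Group A at CT15 and CT21, which were both nearest to Group A at CT12. Each library had fewer possible neighbours in its own group than in the other, so this low number carries little weight. The Group A library of CT18 had a mean correlation of 0.980 with its own group and of 0.984 with Group B. Without it, p before adjustment was below 0.05 for 1158 genes (544 with a higher level in Group B), and edgeR still called 0 genes at an adjusted p of 0.05 (lowest 0.150).

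Principal component analysis placed 27.6% of the variance on its first axis. On it Group A at CT12, CT15 and CT21 scored -15.0, -25.8 and -5.1, whereas Group A at CT18 scored 24.9. Group B scored 16.6, 4.8, -11.5 and 10.99 at CT12, CT15, CT18 and CT21. The CT18 libraries of both groups thus stood on the side where the other libraries of the opposite group lay.

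**Figure D4:**
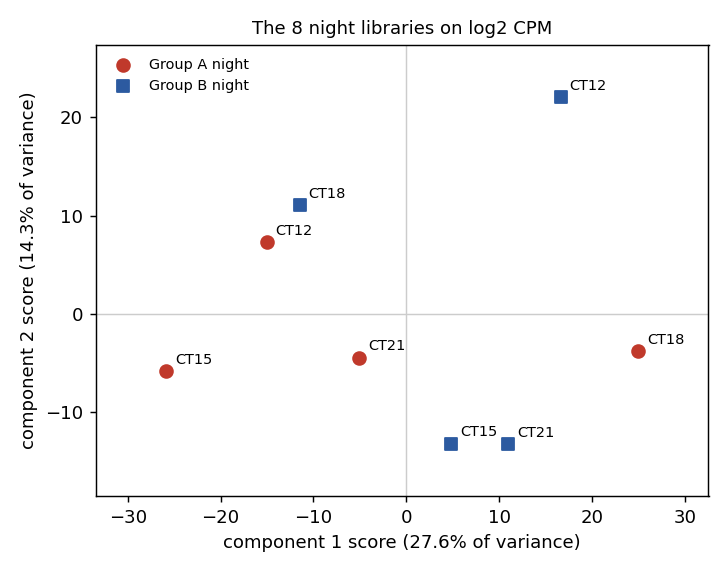
Scores of the 8 night libraries on the first (horizontal axis) and second (vertical axis) principal components of log2 CPM, without units, for Group A (red circles) and Group B (blue squares), labelled by circadian time. The libraries of the groups are interspersed, and Group A at CT18 (24.9 on the first component) lies opposite the other Group A libraries (-25.8 to -5.1).

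The sum of squares around the mean was divided between group and circadian time, over the 12994 tested genes with at least 10 counts in every night library. Group took 14.7% with 1 degree of freedom, circadian time took 38.0% with 3 (12.7% for each), and the remainder took 47.3% with 3 (15.8% for each). The share of group was thus of the size of the remainder for each degree of freedom. The spread within the groups was alike, with a median SD over libraries of 0.14 on the log2 scale in Group A and 0.13 in Group B, and it was larger in Group A in 52.8% of genes.

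At single circadian times the difference between the groups took different directions. At CT12, 100 of the 12994 genes were over 2-fold higher and 225 over 2-fold lower in Group B, and at CT15 these numbers were 107 and 197. At CT18 the balance was the other way, with 199 genes higher and 56 lower. At CT21 66 genes were higher and 106 lower. These counts come from 1 library against 1 and have no replicate check.

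Across genes, the log2 ratios of Group B to Group A at CT18 correlated negatively with those at CT12, CT15 and CT21 (Pearson's r of -0.24, -0.22 and -0.12, n = 12994 genes). The ratios at the other times correlated weakly and positively (r of 0.21 between CT12 and CT15, 0.13 between CT12 and CT21, and 0.15 between CT15 and CT21). Genes are not independent replicates, and a ratio shares the composition of its 2 libraries over all genes, so these values are descriptions. The same direction at all 4 times was found in 883 genes higher and 858 genes lower in Group B, together 12.7% of the genes tested. Random directions at 4 times would give close to this share, so these counts do not show a difference between the groups. In 4 of the genes higher and 6 of the genes lower the difference was over 1.5-fold at each time.

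The day libraries (CT0, CT3, CT6 and CT9 of each group) were not used in the night comparison and give the same contrast in other litters. EdgeR's test of the difference between the night effect and the day effect, fitted over all 16 libraries, called 0 of 13685 genes at an adjusted p of 0.05 (0%, lowest 0.212), while 569 genes passed 0.05 before adjustment (4.16%). DESeq2 called 1 gene for this difference (adjusted p 0.0170), while 528 passed 0.05 before adjustment. No night difference was therefore shown by edgeR to be particular to the night.

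By day 770 genes had an unadjusted p below 0.05 (5.63%), and 68 genes had one both at night and by day with the same direction. These were 8.56% of the night set and 8.83% of the day set, and a further 14 genes had opposite directions. Over all 13685 genes tested, 460 had an unadjusted p below 0.05 by day with the direction of their night difference, and 310 with the opposite direction. The same-direction share of 8.56% in the night set was thus larger than that over all genes tested. Genes are not independent replicates, so these shares are descriptions. Of the 794 genes of the night set, 509 (64.1%) had the same sign by day, against 53.1% of all genes tested. Their differences by day were small. The median log2 difference by day was 0.05 in the genes that were higher at night and -0.03 in those that were lower. As the genes were selected for a low p at night, smaller differences by day do not show an effect particular to the night. Over the 12994 genes with at least 10 counts in every night library, the night and day differences had a Pearson's r of 0.15 and a Spearman's rho of 0.10. Of the 498 genes without overlap at night, 8 were also without overlap by day in the same direction, and 5 in the opposite direction. The 8 were 1.61% of the night set and 1.995% of the 401 genes of the day set. Over all 13685 genes tested, 217 were without overlap by day with a higher level in Group B and 184 with a lower one. The share of 1.61% was thus of the size of that over all genes for 1 direction.

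**Figure D5:**
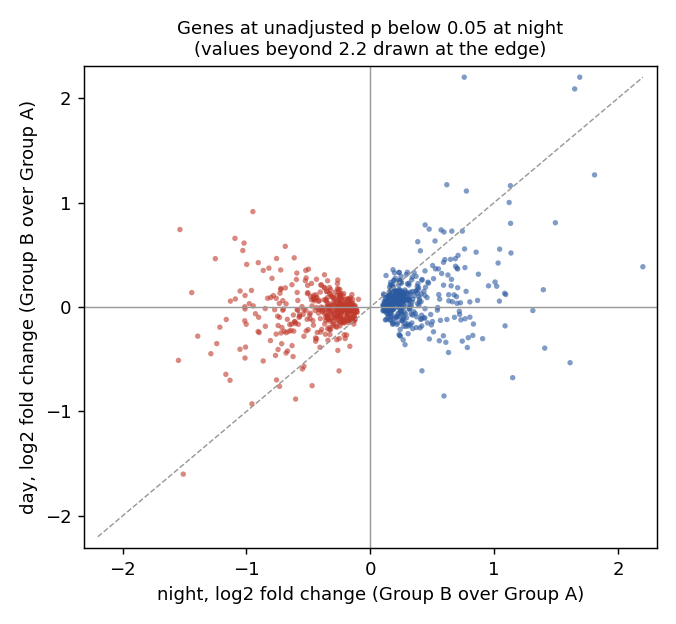
Log2 difference of Group B over Group A by day (vertical axis) against that at night (horizontal axis) for the 794 genes with an unadjusted p below 0.05 at night, blue where higher and red where lower in Group B at night. The dashed line marks equal differences, and most points lie nearer to 0 by day than at night. The genes were selected for a low p at night, which by itself makes their night differences larger than those by day.

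For the 4 named genes, which were chosen for a low p at night, the day values are descriptions. ENSRNOG00000002360 had a mean by day of 16.7 ± 1.29 CPM in Group A and 15.5 ± 3.17 CPM in Group B (SD, n = 4 each), so the groups did not stand apart as at night. ENSRNOG00000046707 was on the opposite side by day, with 3271 ± 1674 CPM in Group A and 2258 ± 807 CPM in Group B. Within Group A its day libraries spanned 1029 to 4582 CPM, a range that holds 4 of its 8 night values.

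ENSRNOG00000025209 had 51.3 ± 4.56 CPM in Group A and 53.6 ± 7.45 CPM in Group B by day (SD, n = 4 each). ENSRNOG00000013661 was the only 1 of the 4 that kept its night direction by day. It had 87.0 ± 12.1 CPM in Group A and 70.5 ± 9.69 CPM in Group B. The log2 difference by day was -0.30, with an edgeR p of 0.0064 before adjustment and 0.697 after. The other named genes had an unadjusted edgeR p by day of 0.198 to 0.509. Among the 12 genes of lowest p in each direction, 4 of those higher at night and 7 of those lower at night had the same sign by day.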

How the data were processed

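Pooled fetal SCN was measured by RNA-Seq in 16 libraries. The deposited table gives raw read counts for each gene. Before deposit the authors depleted rRNA, enriched polyA RNA, made stranded libraries and mapped the reads to rn6 with HISAT2 2.1.0 in the nf-core/rnaseq workflow. Salmon and StringTie are named in the submitters' processing notes, and which of them made the table is not given in the sources used here. The counts were neither normalised nor filtered, and 0 columns were left unused.

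Genes that reached 1.5 CPM in 3 or more of the 16 libraries were kept. The further selection of unique gene IDs in the study was not repeated. Normalisation was by TMM, which scales library totals so that most genes do not differ. Groups came from the labels. The 8 night libraries were fitted with edgeR 4.0.16 (quasi-likelihood, group only) in R 4.3.3, and p was adjusted by Benjamini and Hochberg over all genes tested. Intervals are the log2 difference plus and minus the t quantile times the SE. The day effect and the night-minus-day difference came from a fit of 4 groups over all 16 libraries. Alternatives used DESeq2 1.42.0, limma 3.58.1, other size factors and filters, circadian time as a block, and the omission of single libraries. The procedure was tested on simulated counts, drawn independently for each gene and library. Shifts that many genes of a library share were not simulated.

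The comparison, lists and tests were chosen with earlier results of these data known. Named genes were the 2 genes of lowest p in each direction among those with at least 20 mean normalised counts and no overlap between groups. The rule had called for 12 in each direction with symbols, genes called by a test, the 3 genes of lowest p for the night-minus-day difference, members of 29 gene lists and receptors. Because 0 identifiers matched a symbol, the lists and receptors were not analysed here, and only 4 identifiers are printed.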

Additional observations from a re-analysis of the deposited data

Results flagged for a closer look

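The total count and the other library measures of each group, and the levels of the 4 named genes, were examined for a sample far from the others of its group (20 comparisons of 4 libraries), of which chance would give about 1. The gap between an end value and its neighbour was large relative to the range in 2 of them. The Group B library of CT12 had a total count of 14535916, whereas the other Group B night libraries had 10573054 to 11127260. The Group A library of CT12 scored 7.27 on the second principal component, whereas the other Group A night libraries scored from -5.81 to -3.77. Without the Group B library of CT12 edgeR called 0 genes at an adjusted p of 0.05 (lowest 0.241) and 773 genes had an unadjusted p below 0.05. Without the Group A library of CT12 edgeR called 0 genes (lowest 0.321) and 678 genes had an unadjusted p below 0.05.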

How the results depend on the processing

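The count of genes called at an adjusted p of 0.05 at night was 0 in edgeR's test with DESeq2's size factors, with a filter of 10 counts in every night library, in the fit of all 16 libraries, with each library left out and in limma voom, with a lowest adjusted p from 0.0695 to 0.522. DESeq2's Wald test gave 10 genes (5, 7, 51 and 4 without Group A at CT12, CT15, CT18 and CT21, 10, 8, 3 and 5 without Group B at these times, 4 with a block for circadian time, and 4 in a fit of all 16 libraries). EdgeR without a filter on low counts gave 28 of 22751 genes, including all 10 of DESeq2 and all 4 named genes, and 1321 genes at an unadjusted p below 0.05. In that fit the prior degrees of freedom were 54.0, against 8.55 in the filtered fit, beside 6 residual ones. The number at an unadjusted p below 0.05 was 663 to 1158 with a library left out. Genes with the same direction in all 4 pairs of equal circadian time numbered 1741, close to the number that random directions would give. Genes without overlap numbered 474 to 600 under the other settings. The night-minus-day difference was called in 1 gene by DESeq2 and in 0 by edgeR under the other settings.

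Circadian times may serve as replicate numbers. The deviations of libraries of equal time correlated by -0.073, 0.016, -0.331 and 0.025 at CT12, CT15, CT18 and CT21, so the times did not pair the libraries. With circadian time as a replicate block edgeR called 0 genes at night (lowest adjusted p 0.220), with 622 at an unadjusted p below 0.05, and 0 genes for the night-minus-day difference (lowest adjusted p 0.998).

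The 4 named genes kept their direction in all alternatives. Their choice for no overlap between the groups at night largely fixed this in advance. ENSRNOG00000046707 moved most, from 1.39 to 2.01 on the log2 scale. The cause of the differences between tools was not tested. Alternatives for gene lists were not run, because no identifier matched a symbol. With 1 litter for each group and time, an effect of a litter and an effect of the hour cannot be told apart, and depth limits genes below 20 counts.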

Other observations

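Of the genes tested, 1 gene had 0 counts in all 4 Group A night libraries and was counted in every Group B night library, with 37, 2, 35 and 13 counts at CT12, CT15, CT18 and CT21. Against a floor of 3 counts over the Group A night libraries together, the pooled Group B night counts were at least 29.1-fold higher for their depth. This bound covers counting error only and not the spread between litters, and it was 21.2 to 37.2 with 1 night library left out, a check chosen after the values were seen. No gene showed the opposite pattern (0 genes). By day the same gene had 1, 5, 30 and 17 counts in Group A and 10, 1, 0 and 78 counts in Group B at CT0, CT3, CT6 and CT9. It was thus present in Group A by day, at counts that changed many-fold from litter to litter in both groups, and it was chosen after its values were seen. It was among the 10 genes called by DESeq2 at night.

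The lowest p for the night-minus-day difference in edgeR's test belonged to a gene whose groups differed in opposite directions at night and by day. It had a mean of 91.0 CPM in Group A and 103 CPM in Group B at night, and of 101 and 90.3 CPM by day. The night-minus-day difference was 0.35 on the log2 scale (SE 0.06, edgeR adjusted p 0.212). The choice of this gene for the lowest p of that difference favours such opposite directions. Its identifier is not printed.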
